A study of Homo sapiens with 4 samples.

Results

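The 40 genes described here make up the NRF2 and redox defence programme: the transcription factor NRF2 and its regulators, enzymes that make and use glutathione and thioredoxin, sources of NADPH, detoxifying enzymes, heme and iron genes, and export pumps. They were taken by gene name from a fixed list, and the deposited tables held 41 rows with these names among 51103 rows, because SOD2 is listed under 2 identifiers. Polyadenylated RNA had been sequenced from AGS cells, a widely used line from a human stomach adenocarcinoma, grown in DMEM with fetal bovine serum. A group of 2 libraries came from cells treated with 20 ng/mL of recombinant FGF2, human fibroblast growth factor 2, for 24 h. The reference was a group of 2 libraries labelled NC with no expansion of the name. The treatment text of the NC libraries also describes adding FGF2, which leaves the NC treatment unstated.

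The libraries of a group were not independent. The count of library 1 exceeded that of library 2 at 2 of 22043 detected genes in the FGF2 group and at 2 of 22485 in the NC group. The totals were 13790335 and 27598608 counts for FGF2 libraries 1 and 2, and 14073340 and 27325697 for NC libraries 1 and 2. The counts of library 2 thus behave as if library 1 were part of it, and each group was counted as 1 sample with no test and no p-value. Group values and fold changes come from library 2. Library 1, and library 2 less library 1, served as 2 disjoint read sets. The rule for a call required that each FGF2 read set lie 1.2-fold or more to one side of each NC read set, and that the gene average 50 or more counts over the 4 read sets. Of the 40 members, 33 passed that count minimum, and all 33 did so in each group taken alone. The other 7 (AKR1B10, AKR1C1, AKR1C2, AKR1C3, GPX2, SRXN1 and ABCC2) had too few counts for a call. In brackets after a log2 fold change stands its 95% exact (Clopper-Pearson) counting interval. These intervals cover counting error only: for 15 of the 33 genes at least 1 read set lay outside the interval.

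The cells expressed simple epithelial keratins, and KRT18 reached 199.1 FPKM with FGF2 and 193 FPKM in NC. Of 8 epithelial markers, 4 reached at least 1 FPKM in every library, and the 8 summed to 454.9 and 449.2 FPKM in FGF2 libraries 1 and 2 and 559.2 and 567.4 FPKM in NC libraries 1 and 2. The adhesion genes among them were low, with EPCAM at 0.518 FPKM with FGF2 and 1.19 FPKM in NC, and CDH1 at 0.0235 FPKM with FGF2 and 0.118 FPKM in NC. Of 10 fibroblast markers, 3 reached at least 1 FPKM in every library, COL1A1, PDGFRB and THY1, while COL1A2 and FAP were at 0 in every library. The summed fibroblast marker level was 84.4 and 84.0 FPKM in FGF2 libraries 1 and 2 and 141.6 and 144.8 FPKM in NC libraries 1 and 2. Its part in the results was not tested. The 8 blood and immune markers summed to at most 1.07 FPKM in any library, and 6 of them were at 0 in every library. The 6 endothelial markers summed to at most 1.18 FPKM.

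NRF2, encoded by NFE2L2, is a transcription factor that KEAP1 holds in the cytoplasm and marks for degradation. Oxidants and electrophiles modify KEAP1, and NRF2 then enters the nucleus and binds antioxidant response elements with small MAF proteins, raising the transcription of redox and detoxifying enzymes. Because the control acts mainly on the stability of the NRF2 protein, transcript levels of NFE2L2 and KEAP1 do not measure its activity. The pathway is often active in tumours, where its targets supply NADPH and glutathione.

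More of these genes were lower than higher in the FGF2 sample. Of the 33 measured, 13 were called lower and 1 higher, and 19 met neither bound. Among all 11000 genes over the same count minimum, 13.6% were lower and 12.3% higher. Scaled by library total alone, all genes split into 932 higher and 1933 lower, against 1358 and 1499 here. In such bulk samples, fewer cells of a kind and less RNA per cell cannot be told apart. The 13 lower members were SQSTM1, GPX4, GSTM3, TXNRD1, CAT, NQO1, AKR1B1, EPHX1, PIR, HMOX1, BLVRB, FTL and ABCC3, and the single higher one was TFRC. The median log2 fold change was -0.30, against 0.02 over all genes, and 26 of the 33 values were below 0. That median was -0.33 from read set 1 and -0.26 from read set 2. At a 1.5-fold bound 4 members were lower (GSTM3, EPHX1, PIR and BLVRB) and 0 were higher, where 5.3% and 3.08% of all genes were. The 33 measured members had a median of 1358 counts per read set. Among the 2451 genes at or above that level, 7.06% were lower and 17.1% higher, with a median log2 fold change of 0.11. Of the 13 lower members, SQSTM1, GPX4, TXNRD1, NQO1, AKR1B1 and FTL were above that level. The other lower members, among them the 4 lower at 1.5-fold, were below it, so those shares do not cover them. FPKM values (counts scaled to exon length and library total) below are as deposited, whereas fold changes also carry the TMM scaling (trimmed mean of M values) between groups.

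**Figure D1:**
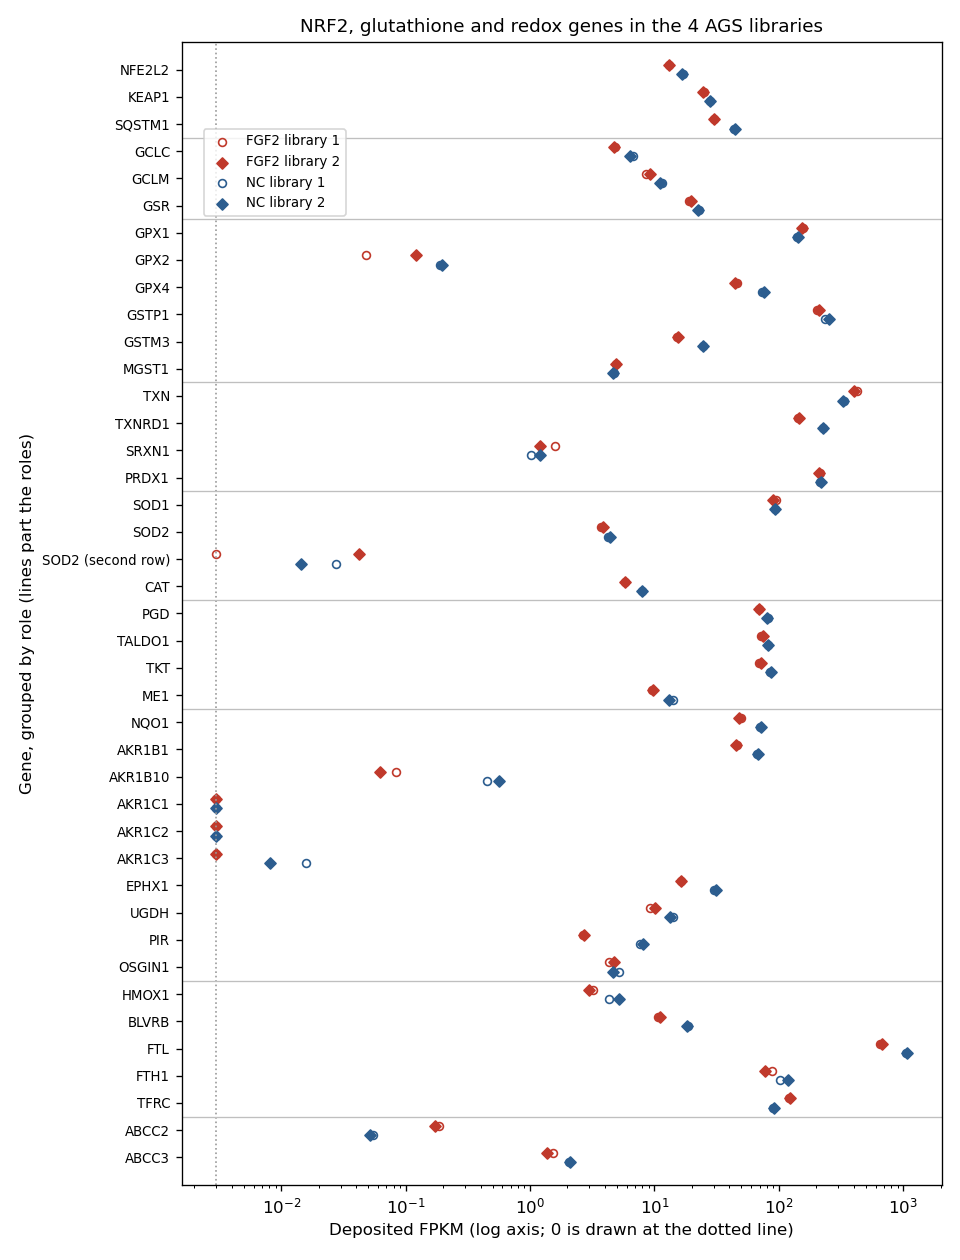
Deposited FPKM (horizontal log axis, 0 drawn at the dotted line) of the 41 rows in each of the 4 libraries, grouped by role, with FGF2 in red above NC in blue; open circles are library 1 and filled diamonds library 2. FTL lies near the right edge at 679.7 FPKM in FGF2 library 2 and 1081 FPKM in NC library 2, and the AKR1C genes lie at or near 0.

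**Figure D2:**
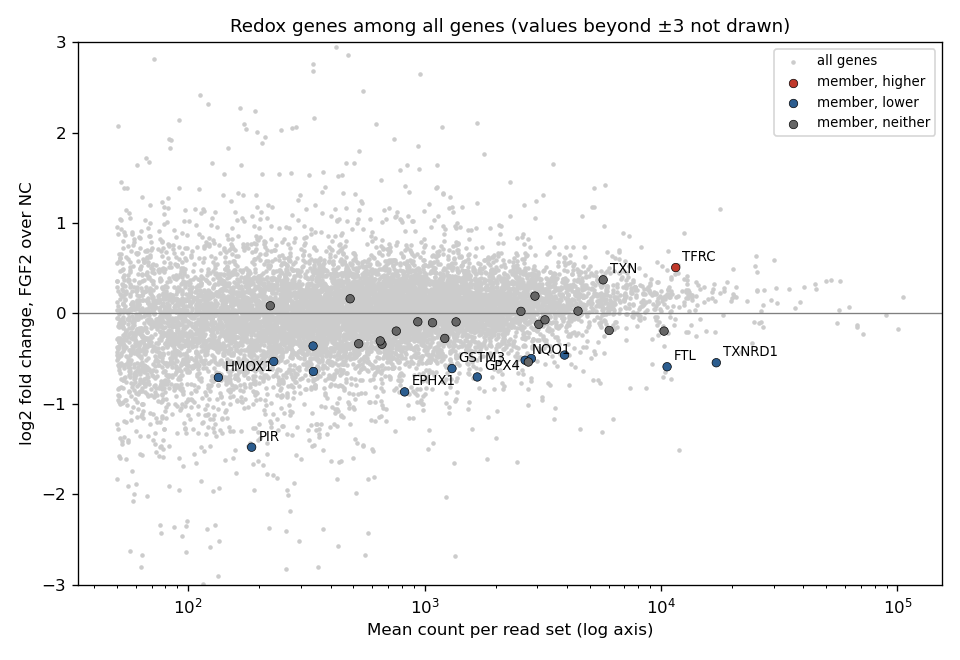
log2 fold change of FGF2 over NC (vertical) against the mean count per read set (horizontal log axis) for all genes in grey and the 33 measured members as outlined points, red if called higher, blue if called lower and dark grey otherwise; genes beyond 3 on either side are not drawn. Most members, 26 of 33, lie below 0, with TFRC at 0.51 and TXN at 0.37 above it.

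The antioxidant response element is shown through promoters that hold its core, because it is the sequence that NRF2 is known to bind. The core was searched as TGACNNNGC on both strands of the RefSeq promoter windows (build GRCh38.p14), which run from 250 bases before to 50 bases after each start site. A window was found for 33 members, which are not the same set as the 33 measured. The other 7, among them the lower genes HMOX1 and ABCC3, could not be searched. Sequence outside the windows was not searched either. Of the 33 with a window, 10 held the core in at least 1 window (30.3%), against 16.1% of all 27305 genes with a window. By window the figures were 11 of 49 (22.4%) for the members and 13.3% of 35116 windows in all. The looser core TGANNNNGC was in 21 of the 33 members (63.6%), against 47.1% of all genes. Of the 11 called lower with a window, 3 held TGACNNNGC (EPHX1, PIR and TXNRD1), as did 6 of the 15 that met neither bound (GCLM, GSTP1, KEAP1, ME1, MGST1 and PGD), GPX2 among those under the count minimum, and not TFRC. In ME1, GSTP1 and PIR a match overlapped TGANTCA, the core bound by AP-1. Below are the 250 bases before the start site for TXNRD1 (chr12:104215529-104215778, plus strand), EPHX1 (chr1:225825104-225825353, plus strand, 1 of its several start sites), GCLM (chr1:93909431-93909680, minus strand), ME1 (chr6:83431052-83431301, minus strand) and GSTP1 (chr11:67583562-67583811, plus strand), read 5′ to 3′ on the gene's strand with 1 match that lies wholly before the start site in capitals. The GCLM match reads on the opposite strand. A match is a description and not a site shown to be bound.
TXNRD1: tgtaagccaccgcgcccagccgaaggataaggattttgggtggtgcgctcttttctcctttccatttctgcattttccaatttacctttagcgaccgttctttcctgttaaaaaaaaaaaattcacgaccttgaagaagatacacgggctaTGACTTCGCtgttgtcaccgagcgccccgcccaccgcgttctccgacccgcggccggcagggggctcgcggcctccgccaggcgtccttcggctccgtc
EPHX1: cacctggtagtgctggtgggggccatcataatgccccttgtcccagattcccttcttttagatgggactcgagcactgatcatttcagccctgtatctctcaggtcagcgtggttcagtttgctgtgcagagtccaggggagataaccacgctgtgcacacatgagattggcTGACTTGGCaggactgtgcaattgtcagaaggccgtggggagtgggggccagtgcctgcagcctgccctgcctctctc
GCLM: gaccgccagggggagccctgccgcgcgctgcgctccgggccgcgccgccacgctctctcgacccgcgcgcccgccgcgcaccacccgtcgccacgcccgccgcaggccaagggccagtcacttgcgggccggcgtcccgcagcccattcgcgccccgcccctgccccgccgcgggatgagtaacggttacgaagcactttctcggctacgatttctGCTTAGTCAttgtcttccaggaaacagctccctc
ME1: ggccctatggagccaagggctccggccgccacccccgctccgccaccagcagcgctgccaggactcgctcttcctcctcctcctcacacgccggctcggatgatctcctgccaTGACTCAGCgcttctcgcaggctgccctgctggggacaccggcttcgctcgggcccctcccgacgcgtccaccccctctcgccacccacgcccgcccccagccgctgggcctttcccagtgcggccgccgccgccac
GSTP1: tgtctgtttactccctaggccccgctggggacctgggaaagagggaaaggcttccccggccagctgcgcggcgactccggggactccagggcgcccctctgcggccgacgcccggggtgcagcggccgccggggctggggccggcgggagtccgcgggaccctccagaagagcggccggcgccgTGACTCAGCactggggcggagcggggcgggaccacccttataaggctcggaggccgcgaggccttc

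**Figure D3:**
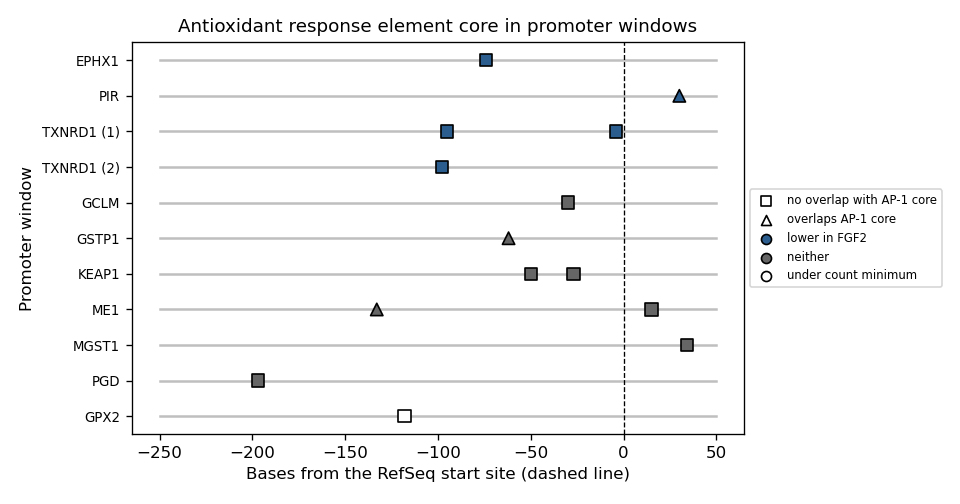
Position of each TGACNNNGC match (horizontal axis, bases from the RefSeq start site, dashed line) in the 11 member windows that hold one, drawn at the middle of the match; triangles overlap the AP-1 core TGANTCA, and colour gives the call in FGF2 against NC. The matches of TXNRD1, EPHX1, GCLM and GSTP1 that are printed start 99, 78, 34 and 66 bases before the start site.

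Among the regulators, NFE2L2 (ENSG00000116044, chromosome 2, 177227595 to 177392697 on GRCh38) had 13.1 and 13 FPKM in FGF2 libraries 1 and 2, against 16.8 and 16.7 FPKM in NC libraries 1 and 2. The FGF2 values were below the NC values, and the log2 fold change of -0.28 (-0.36 to -0.19) fell short of the rule because the closest pair of read sets differed by -0.23. Of the NFE2L2 exon sequence, 17.6% overlaps AC019080.1 on the same strand and 4.1% overlaps genes on the other. KEAP1, the adaptor that hands NRF2 to the CUL3 ubiquitin ligase, stood at 24.9 and 24.7 FPKM in the FGF2 libraries and 28 and 27.9 FPKM in the NC libraries (-0.09, -0.17 to -0.02) and met neither bound. SQSTM1 encodes p62, an autophagy receptor that binds KEAP1 and is itself an NRF2 target. It stood at 30.3 FPKM in both FGF2 libraries, against 43.8 and 44.1 FPKM in the NC libraries, and was called lower at -0.46 (-0.51 to -0.41). Opposite-strand genes (MGAT4B and MRNIP) cover 22% of the SQSTM1 exon sequence. Reads in such overlaps cannot be told apart by strand, since the library kit does not mark it.

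The 3 genes of glutathione synthesis and reduction had values below 0 that missed the rule. GCLC, the catalytic subunit of the first and rate-limiting enzyme, had 4.86 and 4.76 FPKM in the FGF2 libraries, against 6.78 and 6.37 FPKM in the NC libraries. Its log2 fold change was -0.34 (-0.45 to -0.23), and its closest pair of read sets differed by -0.20. GCLM, the modifier subunit of the same enzyme, was at -0.34 from read set 1 and -0.05 from read set 2, a gap wider than its counting interval (-0.30 to -0.09). GSR, which reduces oxidised glutathione with NADPH, had 18.9 and 19.6 FPKM in the FGF2 libraries and 22.8 and 22.2 FPKM in the NC libraries (-0.10, -0.19 to -0.02). All 3 genes thus met neither bound.

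Of the 3 glutathione peroxidases among the 40 genes, GPX4 was called lower. GPX4 (ENSG00000167468, chromosome 19, 1103926 to 1106791), the selenoenzyme that reduces lipid hydroperoxides and holds back ferroptosis, had 46 and 44.4 FPKM in the FGF2 libraries, against 73.2 and 76.3 FPKM in the NC libraries. Its log2 fold change was -0.70 (-0.77 to -0.63), with -0.58 from read set 1 and -0.83 from read set 2. GPX1, the abundant cytosolic glutathione peroxidase, stood at 156 and 154.9 FPKM in the FGF2 libraries and 138.9 and 143.4 FPKM in the NC libraries. It met neither bound at 0.19 (0.14 to 0.24), and its 2 processed pseudogenes drew 203 counts in FGF2 library 2 and 160 in NC library 2. GPX2, the gastrointestinal form, was close to absent with 5 counts in FGF2 library 2 and 8 in NC library 2.

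Of the transferases, which join glutathione to electrophiles, GSTM3 (ENSG00000134202, chromosome 1, 109733932 to 109741038) was called lower. It had 15.1 and 15.3 FPKM in the FGF2 libraries, against 24.6 and 24.7 FPKM in the NC libraries, a log2 fold change of -0.61 (-0.69 to -0.53) with the read sets at -0.62 and -0.60. GSTP1 was the most abundant of them, at 203.4 and 208.7 FPKM in the FGF2 libraries and 234 and 251.4 FPKM in the NC libraries (-0.19, -0.22 to -0.15), and met neither bound. MGST1, a membrane-bound transferase with peroxidase activity, had 4.87 and 4.88 FPKM in the FGF2 libraries and 4.7 and 4.6 FPKM in the NC libraries (0.16, 0.03 to 0.29). It too met neither bound.

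Within the thioredoxin system the carrier protein and its reductase lay on opposite sides of the NC levels. TXNRD1 (ENSG00000198431, chromosome 12, 104215779 to 104350305), the selenoenzyme that reduces thioredoxin, had 143.5 and 146.4 FPKM in the FGF2 libraries, against 227.9 and 225.9 FPKM in the NC libraries. With 27104 counts in FGF2 library 2 and 41401 in NC library 2 it was the most deeply counted of the 40 genes, and its log2 fold change was -0.55 (-0.57 to -0.52). TXN, thioredoxin itself, had 424.6 and 399.3 FPKM in the FGF2 libraries, against 331.4 and 326.1 FPKM in the NC libraries. All FGF2 values were above the NC values, at 0.37 (0.33 to 0.41), but the closest pair of read sets differed by 0.24, just under the 1.2-fold bound, so TXN was not called. PRDX1, a peroxiredoxin that TXN reduces, stood at 213.5 and 209.2 FPKM in the FGF2 libraries and 216 and 217.1 FPKM in the NC libraries (0.03, -0.02 to 0.07). Of its exon sequence, 24.9% overlaps MMACHC on the opposite strand. SRXN1, which repairs over-oxidised peroxiredoxins, had 59 and 90 counts in FGF2 libraries 1 and 2 and 39 and 88 in NC libraries 1 and 2, under the count minimum. Of its exon sequence, 85% overlaps AL121758.1 on the same strand, so its reads may not have been counted in full.

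Neither superoxide dismutase met a bound. SOD1, the cytosolic copper-zinc enzyme, had 95.1 and 90.3 FPKM in the FGF2 libraries and 92.8 and 94 FPKM in the NC libraries (0.02, -0.03 to 0.08). Its read sets gave 0.12 and -0.08. SOD2, the mitochondrial manganese enzyme, stood at 3.72 and 3.89 FPKM in the FGF2 libraries and 4.26 and 4.38 FPKM in the NC libraries (-0.09, -0.19 to 0.00). The second row named SOD2 held 3 counts in FGF2 library 2 and 1 in NC library 2. CAT, the peroxisomal catalase that breaks down hydrogen peroxide, had 5.8 and 5.81 FPKM in the FGF2 libraries, against 7.96 and 7.89 FPKM in the NC libraries. It was called lower at -0.36 (-0.52 to -0.20), with both read sets close together at -0.37 and -0.35.

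The 4 NADPH and pentose phosphate enzymes were all below 0, and none met the bound. TKT, a transketolase of the non-oxidative branch, had 69.4 and 71.4 FPKM in the FGF2 libraries, against 84.9 and 86.4 FPKM in the NC libraries (-0.20, -0.22 to -0.17). PGD, which makes NADPH in the oxidative branch, stood at 68.9 and 69.5 FPKM in the FGF2 libraries and 81.8 and 79.9 FPKM in the NC libraries (-0.12, -0.17 to -0.07). TALDO1, the transaldolase, was at -0.07 (-0.12 to -0.02). ME1, the cytosolic malic enzyme, had 9.59 and 9.75 FPKM in the FGF2 libraries, against 14.1 and 13 FPKM in the NC libraries. Its log2 fold change was -0.34 (-0.46 to -0.21), but -0.47 from read set 1 and -0.19 from read set 2.

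The detoxifying enzymes held the 2 lowest fold changes of the 33 measured genes. PIR (ENSG00000087842, chromosome X, 15384799 to 15493564), which encodes the nuclear iron-binding protein pirin, had 93 and 189 counts in FGF2 libraries 1 and 2, against 270 and 553 counts in NC libraries 1 and 2. That is 2.69 and 2.73 FPKM against 7.64 and 8.06 FPKM, or 2.79-fold higher in the NC sample, at a log2 fold change of -1.48 (-1.73 to -1.24). EPHX1 (ENSG00000143819, chromosome 1, 225810092 to 225845563), the microsomal epoxide hydrolase, had 16.2 and 16.3 FPKM in the FGF2 libraries, against 30.3 and 31.5 FPKM in the NC libraries. Its log2 fold change was -0.87 (-0.97 to -0.76). The read sets gave -1.42 and -1.54 for PIR and -0.81 and -0.93 for EPHX1.

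NQO1 (ENSG00000181019, chromosome 16, 69706996 to 69726951), a quinone reductase widely used as a readout of NRF2, had 49.6 and 47.4 FPKM in the FGF2 libraries, against 71.2 and 71.8 FPKM in the NC libraries. It was called lower at -0.52 (-0.57 to -0.46), with -0.44 from read set 1 and -0.60 from read set 2, and 17.7% of its exon sequence overlaps AC092115.2 on the opposite strand, which had 0 counts in every library. AKR1B1, the aldose reductase, had 46.3 and 45.2 FPKM in the FGF2 libraries, against 67.2 and 67.5 FPKM in the NC libraries (-0.50, -0.55 to -0.44), and was lower as well. UGDH, which makes UDP-glucuronate for conjugation, stood at 9.27 and 10.2 FPKM in the FGF2 libraries and 14.1 and 13.2 FPKM in the NC libraries. Its read sets gave -0.52 and -0.08, so it was not called. OSGIN1, a stress-induced growth inhibitor, was at -0.19 from read set 1 and 0.37 from read set 2, and no direction was detectable.

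The aldo-keto reductases of the AKR1C family, which are strong NRF2 targets in many epithelial cells, were at or near 0. AKR1C1 and AKR1C2 had 0 counts in all 4 libraries, and AKR1C3 had 0 in both FGF2 libraries and 1 in each NC library. These genes are close copies, and the treatment of reads that fit several of them is not stated. AKR1B10 had 2 and 3 counts in FGF2 libraries 1 and 2, against 11 and 27 in NC libraries 1 and 2. The ratio of the libraries 2 was -2.91 on the log2 scale (-5.47 to -1.40), from few counts under the minimum.

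**Figure D4:**
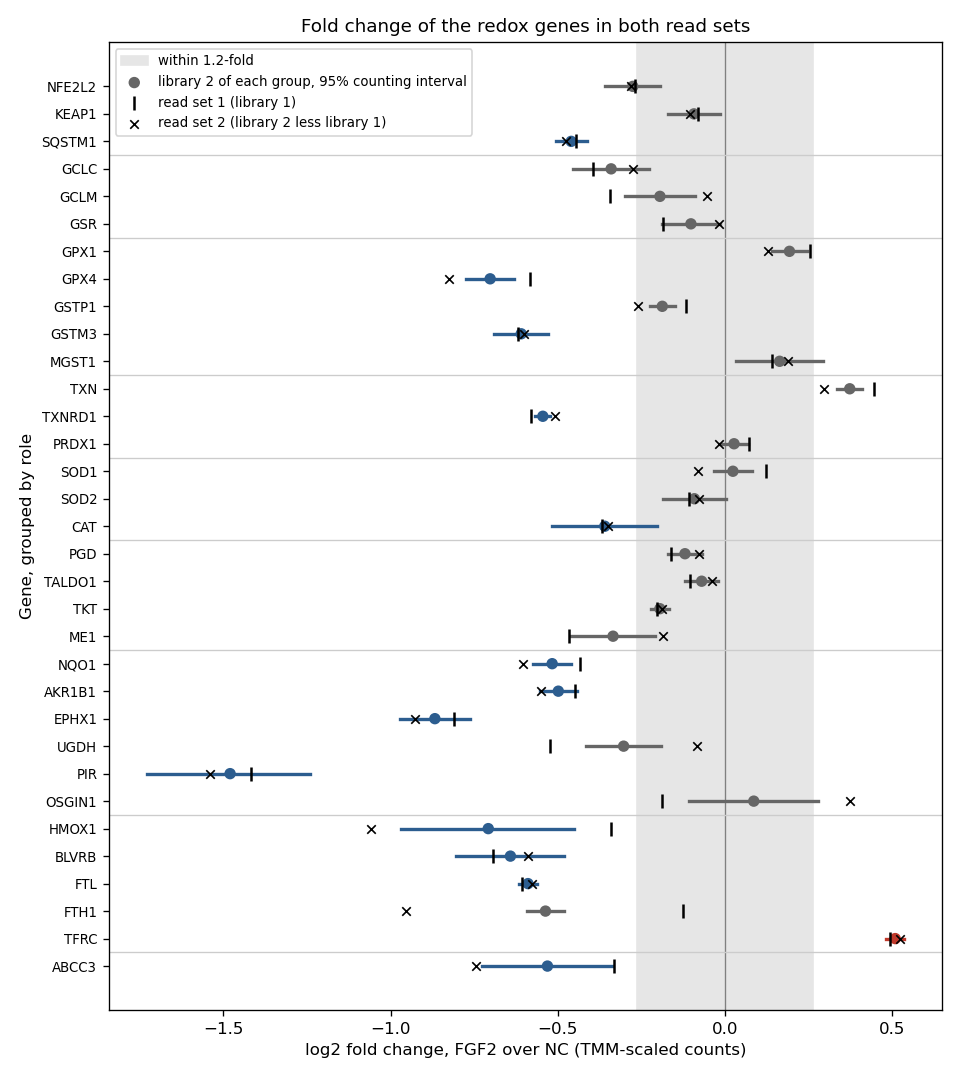
log2 fold change of FGF2 over NC (horizontal axis) for the 33 measured members by role: dots are library 2 of each group with the 95% counting interval, bars are read set 1 and crosses read set 2, and the grey band is 1.2-fold. Called genes are blue (lower) or red (higher); PIR lies farthest left at -1.48, and TFRC is the single red point at 0.51.

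Heme and iron genes held 3 lower members and the 1 higher member. HMOX1, heme oxygenase 1, which frees iron from heme, had 3.23 and 2.98 FPKM in the FGF2 libraries, against 4.34 and 5.16 FPKM in the NC libraries. The log2 fold change of -0.71 (-0.97 to -0.45) was -0.34 from read set 1 and -1.06 from read set 2, so its size was uncertain. BLVRB, a biliverdin and flavin reductase acting after heme oxygenase, had 10.8 and 11 FPKM in the FGF2 libraries, against 18.5 and 18.2 FPKM in the NC libraries (-0.64, -0.80 to -0.48). Its read sets were at -0.69 and -0.59.

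FTL (ENSG00000087086, chromosome 19, 48965301 to 48966878), the light chain of the iron store ferritin, was the most abundant of the 40 genes per length. It had 649 and 679.7 FPKM in the FGF2 libraries, against 1049.8 and 1081 FPKM in the NC libraries, a log2 fold change of -0.59 (-0.62 to -0.56). The 16 FTL pseudogene rows drew 5 counts in FGF2 library 2 and 8 in NC library 2. FTH1, the ferritin heavy chain, had 88.2 and 77.8 FPKM in the FGF2 libraries, against 102.2 and 119.4 FPKM in the NC libraries. All FGF2 values were lower, but the log2 fold change of -0.54 was -0.13 from read set 1 and -0.95 from read set 2, and FTH1 was not called. BEST1 on the opposite strand shares 62.4% of the FTH1 exon sequence, so the FTH1 level is uncertain. BEST1 itself had 11 counts in FGF2 library 2 and 0 in NC library 2. The 25 FTH1 pseudogene rows drew 56 counts in FGF2 library 2 and 77 in NC library 2. TFRC (ENSG00000072274, chromosome 3, 196027183 to 196082189), the transferrin receptor that brings iron into the cell, had 119.8 and 122.1 FPKM in the FGF2 libraries, against 90.4 and 90.8 FPKM in the NC libraries. Both read sets placed it above NC, at 0.49 and 0.52, with a log2 fold change of 0.51 (0.48 to 0.54).

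Ferritin and the transferrin receptor are known to be controlled through iron-responsive elements, hairpins in the RNA bound by the proteins ACO1 and IREB2 when iron is scarce. Near the start of ferritin mRNAs such a hairpin blocks translation, and near the end of TFRC mRNA hairpins protect the transcript from decay. These hairpins are shown as a feature of the transcripts, and whether they bear on the FTL or TFRC RNA levels was not tested. In the GENCODE v29 transcripts, an unpaired C, a stem of 5 pairs and a CAGTGN loop were found once in the 5′ UTR of FTL, once in the 5′ UTR of FTH1 and 4 times in the 3′ UTR of TFRC, of which 1 is printed. Each sequence reads 5′ to 3′ with the loop in capitals. The sites are chr19:48965336-48965362 (plus strand), chr11:61967575-61967601 (minus strand) and chr3:196050980-196051006 (minus strand) on GRCh38.
FTL: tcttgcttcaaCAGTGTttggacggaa
FTH1: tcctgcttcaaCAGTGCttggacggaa
TFRC: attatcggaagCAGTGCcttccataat

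The transcripts of the hairpin-binding proteins met neither bound. Such RNA levels do not measure how much of either protein binds a hairpin. ACO1 stood at 13.9 and 14.5 FPKM in the FGF2 libraries and 14.6 and 15.1 FPKM in the NC libraries (0.02), and IREB2 at 8.94 and 8.76 FPKM in the FGF2 libraries and 9.81 and 9.74 FPKM in the NC libraries (-0.07). Both were named after their values were seen.

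Of the efflux pumps, ABCC3, which exports glucuronide and glutathione conjugates, had 202 and 366 counts in FGF2 libraries 1 and 2, against 276 and 554 counts in NC libraries 1 and 2. It was called lower at -0.53 (-0.73 to -0.34), with read sets at -0.33 and -0.75. ABCC2, a related apical pump, had only 20 and 37 counts in FGF2 libraries 1 and 2, against 6 and 11 in NC libraries 1 and 2. The ratio of the libraries 2 was 1.77 on the log2 scale (0.81 to 2.94), from few counts under the minimum.

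Other genes of the same pathways were read from lists that did not contain the 40. Of 181 such genes, 140 passed the count minimum, of which 34 were lower (24.3%) and 17 higher (12.1%), beside 13.6% and 12.3% of all genes. Their median log2 fold change was -0.03. Other glutathione peroxidases and transferases had 6 of 10 lower and 1 higher (median -0.45), other NADPH genes 6 of 15 lower and 1 higher (-0.17), and other detoxifying enzymes 9 of 20 lower and 0 higher (-0.26). NRF2 pathway regulators had 1 of 19 lower and 3 higher (0.05), glutathione and cystine genes 4 of 20 lower and 4 higher (0.03), and further thioredoxin, peroxiredoxin and selenoprotein genes 5 of 29 lower and 4 higher (0.08). Heme and iron genes had 3 of 22 lower and 4 higher (-0.01), and of 5 efflux transporters 0 met either bound.

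**Figure D5:**
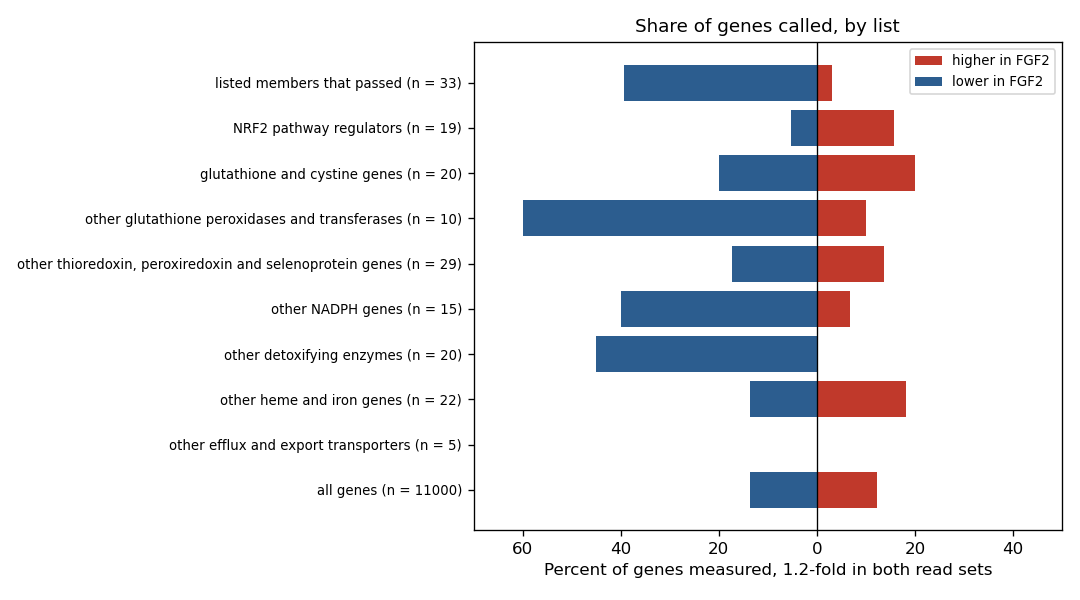
Percent of genes called higher (red, right) or lower (blue, left) in FGF2 for the 33 measured members, each of the other pathway lists and all 11000 genes, with the number of genes measured beside each name. The members had 39.4% lower and 3.03% higher, against 13.6% and 12.3% of all genes.

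At 1.5-fold in both read sets, 16 of the 140 were lower and 2 higher, beside 5.3% and 3.08% of all 11000 genes. TRIM16L, a tripartite motif gene, had the lowest value, with 3.12 and 3.33 FPKM in the FGF2 libraries, against 13.9 and 14 FPKM in the NC libraries (-1.99, -2.15 to -1.83), and its relative TRIM16 was at -1.22. The pair is similar in sequence, so reads may be split between them. Among the transferases and peroxidases, GSTM4 had 2.94 and 3.05 FPKM in the FGF2 libraries, against 11.6 and 11.5 FPKM in the NC libraries (-1.84, -1.99 to -1.69). GPX3 (-0.97), MGST2 (-0.73) and the prostaglandin E synthase PTGES (-0.94) were lower too. The mu-class transferases are similar in sequence, so GSTM3 and GSTM4 may share reads, which was not tested. The list of other detoxifying enzymes and NRF2 targets also held the aldehyde dehydrogenase ALDH3B1 (-1.64), the sulfotransferase SULT1A1 (-1.35), the cytochrome P450 CYP1B1 (-1.22) and the heme-making ferrochelatase FECH (-0.72).

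NADPH makers were among these genes. The isocitrate dehydrogenases IDH1, cytosolic, and IDH2, mitochondrial, were at -0.96 (-1.06 to -0.86) and -0.88 (-0.98 to -0.77). IDH1 had 9.4 and 9.77 FPKM in the FGF2 libraries, against 21.3 and 20.1 FPKM in the NC libraries, with read sets at -1.09 and -0.81. The transhydrogenase NNT was at -0.71 and H6PD, the pentose phosphate enzyme of the endoplasmic reticulum, at -0.80. OPLAH, which returns oxoproline to glutamate in the glutathione cycle, was at -0.99 and the neutral amino acid transporter SLC1A4 at -0.88.

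The 2 pathway genes that were at least 1.5-fold higher were MAFF and TXNIP. MAFF, a small MAF protein that pairs with NRF2 or with the repressor BACH1, had 13 and 12.3 FPKM in the FGF2 libraries, against 4.75 and 4.65 FPKM in the NC libraries (1.48, 1.36 to 1.61). The other small MAF genes, MAFG (0.05) and MAFK (0.08), met neither bound and were named after their values were seen. TXNIP, which binds and inhibits thioredoxin, had 21.6 and 21.3 FPKM in the FGF2 libraries, against 11.9 FPKM in both NC libraries (0.92, 0.81 to 1.02). BACH1, which competes with NRF2 at antioxidant response elements and represses HMOX1, was named after its value was seen. It had 6.21 and 7.19 FPKM in the FGF2 libraries, against 4.82 and 4.56 FPKM in the NC libraries, and was called higher at 0.74 (0.62 to 0.85), with 0.45 from read set 1 and 1.00 from read set 2. SLC7A11, the cystine carrier that feeds glutathione synthesis, was also named afterwards and met neither bound at -0.10 (-0.25 to 0.05).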

How the data were processed

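Polyadenylated RNA of 4 AGS libraries was deposited as 1 table per library, with raw read counts per gene and FPKM values. The deposited counts were made by the authors with HISAT2 and HTSeq 0.13.5 on GRCh38, as tools and build are named in the submitters' processing notes; their settings are unstated. The deposited FPKM values are scaled by the authors to gene length and library total. Of 13109 genes with over 20 counts in both libraries 2, 99.5% had an implied length equal to the merged exon length in GENCODE v29 when rounded to a whole base, so coordinates are from that release.

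Counts of the 2 libraries in a group overlap, so no test was run, in place of the edgeR test usual for counts. Effective library sizes came from TMM in edgeR 4.0.16 over 14043 genes. Fold changes are log2 ratios of scaled counts with 0.5 added to each. The call rule was tested on simulated data, with the outcome not reported here and not used as support for any call. Intervals were computed with scipy 1.17.1 and figures drawn with matplotlib 3.10.9. DESeq2 1.42.0 size factors, scaling by library total, other bounds, count minimums and single libraries were tried as alternatives. Every gene of the list was named. Other pathway genes were named if 1.5-fold in both read sets, with exceptions stated. The members, lists and rules were chosen with earlier results of these data known. Total counts ran from 13790335 to 27598608 per library.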

Additional observations from a re-analysis of the deposited data

How the results depend on the processing

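All 13 lower calls remained under scaling by library total, DESeq2 size factors and 2 added to each count. Mean FPKM and settings with fewer libraries or read sets compare fewer pairs, so they can add calls and say nothing on whether calls last. A library left out means here 1 library, or the same library of both groups. Counts of members called higher were 1 as reported, and 1 to 2 with a library left out, 2 with mean FPKM, 2 with no count minimum, 3 with library 2 less library 1 alone and 0 at 1.5-fold. TXN was the added gene wherever leaving out a library gave 2. Counts called lower were 13 as reported, and 15 by library total, which added GCLC and NFE2L2. They were 14 to 18 with a library left out, 20 with mean FPKM, 4 at 1.5-fold and 8 of 26 at a minimum of 500 counts. Counts over all 11000 genes moved too, to between 1860 and 2416 lower and between 1721 and 2439 higher with a library left out, and to 2959 lower and 1588 higher with mean FPKM. At 500 counts 524 of 5745 genes were lower and 828 higher. With under 10% shared exon sequence, chosen after seeing the data, 11 of 27 were lower and 1 higher. The median of -0.30 was -0.33 to -0.30 with a library left out, -0.38 by library total, -0.42 with mean FPKM and -0.24 at 500 counts. By library total the median of all genes was -0.06 and the split of all genes 932 higher and 1933 lower, against 1358 and 1499. Pathway genes called higher were 17, and 19 to 27 with a library left out, 30 with library 2 less library 1 alone, 11 by library total and 2 at 1.5-fold. Those called lower were 34, and 36 to 43 with a library left out, 16 at 1.5-fold and 16 at 500 counts. The looser promoter core was in 21 members, against 10. No paired analysis was possible because library 2 contains the counts of library 1, which leaves 1 sample per group and no pairs. The causes were not tested. With each group counted as 1 sample, differences between cultures cannot be judged, and genes under the count minimum were given no call. For 15 of the 33 measured members, at least 1 read set lay outside the counting interval. Whether the reads of library 2 less library 1 came from the same culture as library 1 was not tested.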
